A study of Mus musculus with 14 samples.

Results

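The BCL2 family decides whether the outer mitochondrial membrane stays closed. Survival proteins (Bcl2, Bcl2l1, which encodes BCL-XL, and Mcl1) hold the effector proteins Bax and Bak1 in check. The effectors form pores that release cytochrome c, which starts the caspase cascade, and the BH3-only proteins (Bcl2l11 or BIM, Bbc3 or PUMA, Pmaip1 or NOXA, Bmf and Bid) bind survival proteins or switch effectors on. Small cell lung cancer is a neuroendocrine lung tumour in which drugs that block BCL2 and BCL-XL have been studied. The 10 genes named here were taken by symbol from the 32926 gene symbols of a count table made from mouse cell lines of this tumour: 3 survival members, 2 effectors and 5 BH3-only members. All 10 passed the filter on low counts in each fit, Pmaip1 through its counts in Non-NE or day 21 libraries only.

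RNA was sequenced from 14 libraries in 6 groups. Neuroendocrine (NE) and non-neuroendocrine (Non-NE) lines, n = 3 libraries each, came from adult mice of mixed strain whose alleles included CGRPCreER/+ together with Rbf/f and P53f/f and that were injected with TM. In these mice the CGRP promoter, active in neuroendocrine cells, drives a Cre recombinase that tamoxifen (taken to be TM) switches on, so the floxed tumour suppressors Rb1 and Trp53 are among the targets in every group, controls included. Lines of the other 4 groups carry Rosa26rtTA;Tet-onYAP5SA as well, an inducible YAP5SA, a form of the coactivator YAP that Hippo kinases cannot switch off. They were sampled at days 0, 3, 7 and 21, n = 2 libraries each, and the source text of day 0 replicate 1 lists no transgene. All cells grew in Hites medium, and the source is lung tumour throughout. The labels name no agent for the induction and no line without the transgene at days 3, 7 or 21, so YAP5SA and time in culture cannot be told apart. Nothing says that replicates came from separate cultures, so p-values measure only the spread between these libraries, which may be technical.

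Promoters show what sequence the members carry at their start sites, and the 3 printed were chosen after the values were seen, from members that hold a motif: the main survival genes Bcl2l1 and Mcl1, and Bmf. RefSeq promoters on GRCm38.p6 (250 bases before to 50 after a start) matched 9 members, 16 promoters in all, with Pmaip1 left out. Both strands were searched for the core site of the TEAD factors through which YAP acts (GGAATG), the AP-1 site TGANTCA, an E2F core (TTTCCCGC) and the E-box CAGCTG read by neuroendocrine basic helix-loop-helix factors. No match overlapped another. The TEAD core lay in Bcl2l1 promoter 3, 108 bases before the start, and in Mcl1 promoter 1, 199 bases before it, where it reads as its reverse complement CATTCC. No other of the 16 promoters held it, those of Bcl2, Bak1 and Bid and Bcl2l1 promoters 1 and 2 included. The TEAD core occurs in 14.7% of the 32851 promoters of the table. The CAGCTG E-box, present in 16.3% of them, lay in all 3 Bmf promoters and in Bcl2l11 promoter 1. In Bmf promoter 2 it starts 70 bases before the start site. The AP-1 site, in 7.81% of promoters, and the E2F core, in 1.07%, lay in none of the 16. The 250 bases before each start follow, 5′ to 3′ on the gene's strand, with the motif in capitals. Bcl2l1 promoter 3 lies at chr2:152831729-152831978 on the minus strand, Mcl1 promoter 1 at chr3:95658471-95658720 on the plus strand and Bmf promoter 2 at chr2:118549687-118549936 on the minus strand. A match describes the letters and is not evidence of binding.
Bcl2l1 promoter 3: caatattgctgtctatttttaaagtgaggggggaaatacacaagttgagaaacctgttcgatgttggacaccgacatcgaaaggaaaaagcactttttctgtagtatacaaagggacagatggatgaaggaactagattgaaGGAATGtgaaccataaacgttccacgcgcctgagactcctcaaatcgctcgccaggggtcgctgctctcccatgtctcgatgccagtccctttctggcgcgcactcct
Mcl1 promoter 1: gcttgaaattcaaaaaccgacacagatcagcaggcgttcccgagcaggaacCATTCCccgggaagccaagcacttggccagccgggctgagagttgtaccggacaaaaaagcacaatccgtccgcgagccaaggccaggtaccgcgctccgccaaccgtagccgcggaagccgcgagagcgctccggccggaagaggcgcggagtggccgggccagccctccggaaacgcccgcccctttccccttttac
Bmf promoter 2: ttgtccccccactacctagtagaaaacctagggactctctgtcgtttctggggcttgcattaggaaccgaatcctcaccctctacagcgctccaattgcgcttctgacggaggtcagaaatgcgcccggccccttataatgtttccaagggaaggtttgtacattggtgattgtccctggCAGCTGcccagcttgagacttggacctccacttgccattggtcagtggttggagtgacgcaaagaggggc

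Libraries held 6730816 to 10659524 counts. Levels are CPM, each count relative to its library total as scaled by TMM over all 14 libraries. Where a group has 0 counts, 3 counts in its libraries together set the upper limit, which is 0.104 to 0.152 CPM and covers counting error only. Day 0 replicate 1 contains NE replicate 2: in 0 of 32926 genes was the NE count the higher one, and a draw of 85.7% of the day 0 reads would scatter as much as the NE counts do (chi-square per gene 1.03 over 12673 genes). NE and day 0 are therefore not independent. Member calls that rest on either are also given without it, while shares, ratios, orders and the lists of other genes are given with both. Yap1 had 13.01 ± 5.64 CPM in NE libraries, while Non-NE libraries had 206 ± 63.6 CPM (SD, n = 3). Its means were 7.50, 1148, 763 and 213 CPM (means, n = 2) at days 0, 3, 7 and 21. Its count holds transgene and endogenous transcripts together. Rb1 and Trp53 kept counts in every group (at least 5.72 and 5.996 CPM, group means), and a count outside the deleted exons checks nothing. Neuroendocrine markers summed to 2720 to 4090 CPM in NE libraries, 58.8 to 418 CPM in Non-NE libraries, 4010 to 4210 CPM at day 0 and 759 to 774 CPM at day 21. Neurod1 was at 0 in Non-NE and at days 3, 7 and 21, and Calca, which encodes the CGRP peptide, at 0 in all libraries but day 21 replicate 2, which had 1 count. Of 10 fibroblast markers 9 had counts in Non-NE libraries (Thy1 at 0), with a sum of 10700 to 23000 CPM against 3.19 to 7.87 CPM in NE libraries, and 47.6 to 52.7 CPM at day 21, where Postn was at 0. All 6 epithelial markers had counts in every group, with sums of 2120 to 2980 CPM in NE libraries, 5.62 to 36.2 CPM in Non-NE libraries, 2990 to 3090 CPM at day 0 and 4330 to 4560 CPM at day 21. Leukocyte markers summed to 6.85 to 7.31 CPM at day 0 and 113 to 136 CPM at day 21, with Ptprc at 0 on all 4 days. The part of these marker changes in the results below was not tested.

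Non-NE against NE asks how the 2 cell states differ. Of the 10 members 5 were higher in Non-NE libraries (Bcl2, Mcl1, Bak1, Bid and Pmaip1) and 3 lower (Bcl2l1, Bbc3 and Bmf) at an adjusted p under 0.05 in edgeR's quasi-likelihood test, against 20.0% of 12966 genes called higher, 22.8% called lower and 42.8% called either way. Bax and Bcl2l11 did not pass. Pmaip1 passed the count filter through the Non-NE libraries where it is high, so its call is no support, and 4 of the other 9 members were higher. The median log2 change was 0.45 over the 10 members, Pmaip1 among them, and -0.02 over all genes. Among the other 9 the middle value was that of Bax (-0.31). In bulk RNA, a change in the share of cells that express a gene and a change in RNA per cell cannot be told apart.

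**Figure D1:**
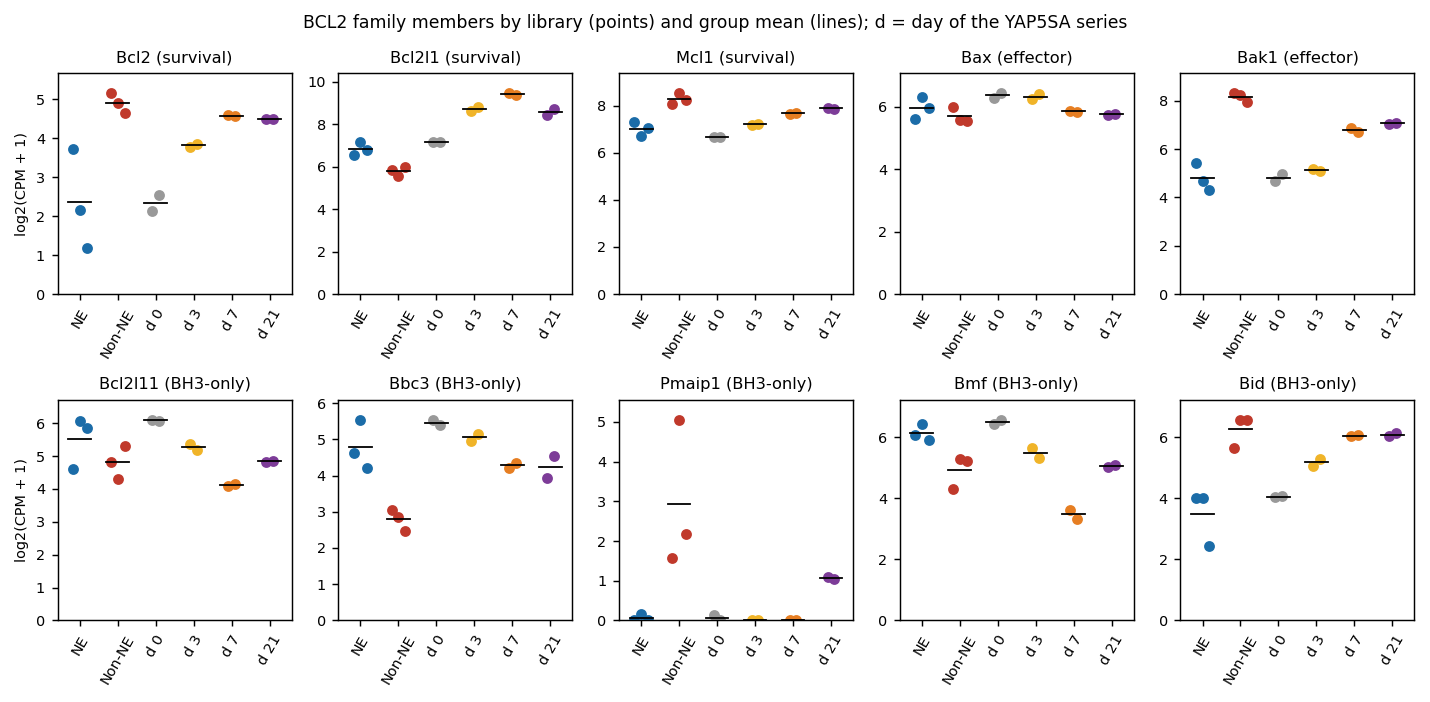
Level of each member in every library, as log2(CPM + 1) with an axis that starts at 0; points are libraries, lines are group means, and d gives the day of the YAP5SA series. Bak1 and Bid are high in the Non-NE libraries, Bcl2l1 is highest at day 7 (702 and 667 CPM), and Pmaip1 is near 0 outside Non-NE and day 21.

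The survival members moved in opposite directions between the states. Bcl2l1, whose product BCL-XL guards mitochondria in many epithelial and neural cells, had 93.8, 144 and 109 CPM in NE libraries, and Non-NE libraries had 57.2, 46.9 and 61.6 CPM. Every Non-NE value lay below every NE value, and the level was 2.16-fold lower (log2 change -1.11, SE 0.23, adjusted p = 0.0083). Mcl1, which encodes a short-lived survival protein, had 157, 105 and 130.4 CPM in NE libraries, and Non-NE libraries had 265, 366 and 299 CPM. The groups did not overlap and the level was 2.3-fold higher in Non-NE cells (log2 change 1.20, SE 0.22, adjusted p = 0.00498). Bcl2 itself, the founding survival gene, was spread widely in the NE libraries, at 12.3, 3.499 and 1.28 CPM. All Non-NE libraries were above them, with 34.7, 29.1 and 24.0 CPM. It was 4.97-fold higher in Non-NE (log2 change 2.31, SE 0.75, adjusted p = 0.0451), a call that was lost with library totals in place of TMM (adjusted p = 0.0635), without a count filter (0.0516) and without any 1 library other than NE replicate 1 (0.0517 to 0.125). Without NE replicate 1 the log2 change was 3.57 (adjusted p = 0.00754).

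The effectors parted. Bak1, which resides in the outer mitochondrial membrane, had the largest change among the members apart from Pmaip1. NE libraries had 42.2, 24.3 and 19.0 CPM of it and Non-NE libraries 315, 300.4 and 243.5 CPM, with no overlap. The level was 9.74-fold higher (log2 change 3.28, SE 0.33, adjusted p = 0.000461). Bax, the effector that moves from the cytosol to mitochondria, had 47.7, 77.7 and 60.6 CPM in NE libraries, and Non-NE libraries had 62.5, 46.9 and 45.9 CPM. These ranges overlapped (log2 change -0.31, SE 0.25, adjusted p = 0.36).

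Among BH3-only members, Bid and Pmaip1 were higher in Non-NE cells and Bbc3 and Bmf lower. Bid, which caspase-8 cuts to carry a death receptor signal to mitochondria, had 15.1, 15.0 and 4.48 CPM in NE libraries, and Non-NE libraries had 49.2, 94.9 and 93.2 CPM. It was 6.68-fold higher with no overlap (log2 change 2.74, SE 0.53, adjusted p = 0.00612). Bbc3, a p53 target whose product PUMA binds all survival proteins, had 23.6, 45.7 and 17.6 CPM in NE libraries, and Non-NE libraries had 7.27, 6.23 and 4.57 CPM. Every Non-NE library was lower, by 4.98-fold (log2 change -2.32, SE 0.44, adjusted p = 0.00577). Bmf, whose product is held on the cytoskeleton until released, had 66.0, 85.8 and 59.1 CPM in NE libraries, and Non-NE libraries had 18.8, 38.4 and 36.5 CPM. The groups did not overlap and the level was 2.31-fold lower (log2 change -1.21, SE 0.33, adjusted p = 0.0232), a call lost without NE replicate 1 (adjusted p = 0.0513) or NE replicate 2 (0.0705). Bcl2l11, whose product BIM binds all survival proteins, overlapped between the groups at 23.6, 65.9 and 56.5 CPM against 27.3, 18.7 and 39.0 CPM (log2 change -0.82, SE 0.45, adjusted p = 0.181).

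Pmaip1, another p53 target, encodes NOXA, which binds MCL1 in particular. It had 0, 1 and 0 counts in the NE libraries and 12, 265 and 33 counts in the Non-NE libraries (1.98, 32.4 and 3.503 CPM). The pooled level was 378-fold higher in Non-NE (95% counting interval 67.4 to 15000). Non-NE replicate 2 held 265 of the 310 counts, and without it the pooled ratio was 84.0 (14.3 to 3390).

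Without NE replicate 2, the library that shares its reads with day 0, the calls of Bcl2l1 (log2 change -0.89, adjusted p = 0.0298), Mcl1 (1.09, 0.0165), Bak1 (3.21, 0.0041), Bbc3 (-1.79, 0.0205) and Bid (2.99, 0.0176) were kept in edgeR. Those of Bcl2 (2.09, 0.125) and Bmf (-1.02, 0.0705) were not.

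In the YAP5SA series the members spread in both directions from day 0. At day 3, 5 members were higher (Bcl2, Bcl2l1, Mcl1, Bak1 and Bid) and 3 lower (Bcl2l11, Bbc3 and Bmf), against 26.2% of 13996 genes called higher, 22.4% called lower and 48.6% called either way. At day 7 the same 5 were higher and 4 lower, Bax being the fourth, against 37.2%, 33.8% and 71.0% of genes. At day 21 Pmaip1 was the sixth higher member and the same 4 were lower, against 37.7%, 34.0% and 71.7% of genes. Members called either way were 8, 9 and 10 of 10, beside 48.6%, 71.0% and 71.7% of all genes, and the count at day 21 includes Pmaip1. The median log2 change over the members was 0.13, 0.25 and 1.33 at days 3, 7 and 21, beside 0.01, 0.03 and 0.02 over all genes. Leaving out Pmaip1, which had 0 or 1 count in those groups, gave 0.31 at day 3 and 1.00 at day 7. The day 21 median includes Pmaip1, and the middle value of the other 9 members was that of Mcl1 (1.23). The 3 comparisons share the day 0 libraries.

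All 3 survival members rose by day 3. Bcl2l1 went from 142 and 145 CPM at day 0 to 397 and 450.5 CPM at day 3, 702 and 667 CPM at day 7 and 348 and 414.5 CPM at day 21. Day 7 libraries were the highest of all 14, and no later library overlapped day 0. The level was 2.94-fold above day 0 at day 3 (log2 change 1.56, SE 0.09, adjusted p = 1.08e-13), 4.82-fold at day 7 (2.27, SE 0.09, 1.28e-17) and 2.7-fold at day 21 (1.43, SE 0.09, 1.21e-13). It then was 1.79-fold lower at day 21 than at day 7 (log2 change -0.84, SE 0.08, adjusted p = 7.79e-09).

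Bcl2 and Mcl1 rose without that later fall. Bcl2 went from 3.37 and 4.81 CPM to 12.8 and 13.4, then 23.2 and 22.7, then 21.6 and 21.5 CPM. It was 3.17-fold above day 0 at day 3, 5.63-fold at day 7 and 5.33-fold at day 21 (log2 changes 1.67, 2.49 and 2.41, SE 0.16 to 0.18, adjusted p at most 1.95e-08), with the difference between days 21 and 7 at -0.08 (adjusted p = 0.626). Mcl1 went from 102 and 102 CPM to 143 and 149, then 199 and 205, then 238.5 and 230.4 CPM. It was higher at each step, 1.42-fold, 2-fold and 2.34-fold above day 0 (log2 changes 0.51, 1.00 and 1.23, SE 0.07, adjusted p at most 2.38e-06). Its step from day 7 to day 21 was small (log2 change 0.22, adjusted p = 0.0103) and was lost without either day 7 library (adjusted p = 0.102 and 0.0511).

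**Figure D2:**
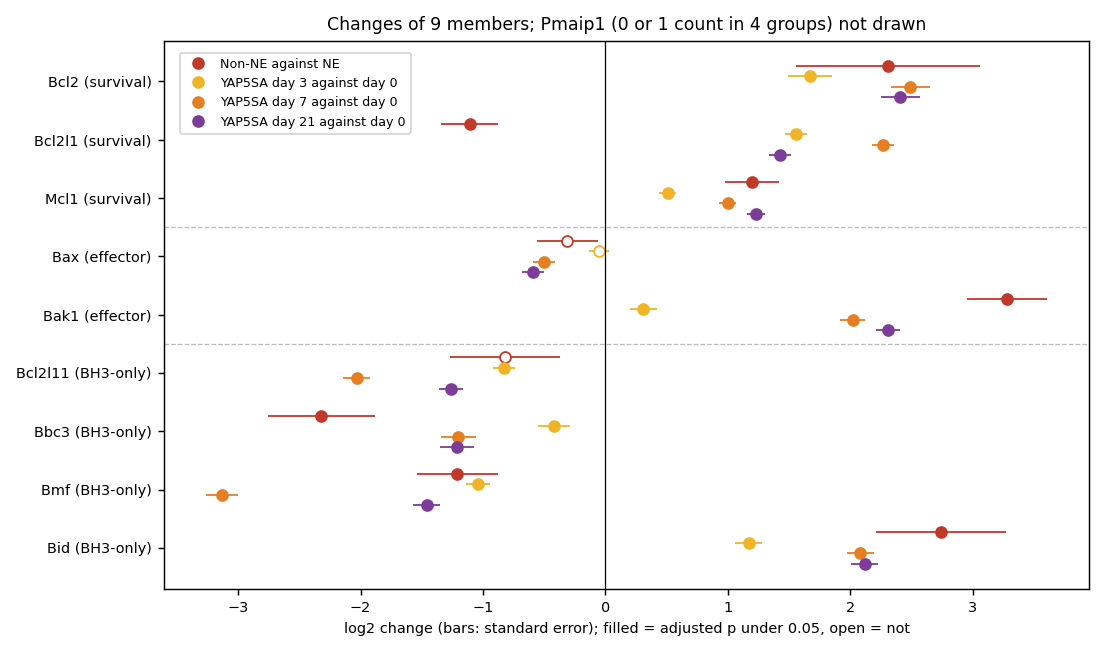
Log2 change of 9 members in Non-NE against NE and at days 3, 7 and 21 against day 0; bars are standard errors, filled points passed an adjusted p of 0.05, and Pmaip1 is left out because of its counts of 0 or 1 in 4 groups. Bcl2l1 is the member called in opposite directions, at -1.11 in Non-NE and 1.43 at day 21, while Bmf reaches -3.13 at day 7.

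Of the effectors, Bak1 rose late and Bax fell slightly. Bak1 stood at 24.4 and 30.3 CPM at day 0, 34.7 and 33.5 at day 3, 117 and 103 at day 7 and 131 and 135 at day 21. Its log2 change was 0.31 at day 3 (SE 0.11, adjusted p = 0.0211), a call lost with library totals (0.0591) and without day 0 replicate 1 (0.348), day 3 replicate 1 (0.0845) or day 3 replicate 2 (0.0502). The main step came between days 3 and 7, where it was 3.27-fold higher (log2 change 1.71, SE 0.1, adjusted p = 9.62e-14), and it ended 4.94-fold above day 0 (2.31, SE 0.1, 7.51e-17). The further step to day 21 was 0.29 (adjusted p = 0.00727) and was lost without day 7 replicate 2 (0.175). Bax stood at 77.0 and 84.8 CPM, then 74.9 and 82.9, 57.3 and 56.0, and 52.6 and 53.6 CPM. Day 3 overlapped day 0 (log2 change -0.05, adjusted p = 0.676), and the level was 1.42-fold lower at day 7 and 1.5-fold lower at day 21 (log2 changes -0.50 and -0.59, SE 0.09, adjusted p at most 1.28e-05). Both Bax calls were lost when all 14 libraries shared 1 estimate of the spread (adjusted p = 0.102 and 0.0578).

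The BH3-only members divided, with Bid rising and Bmf, Bcl2l11 and Bbc3 falling. Bmf had the largest fall of the family, from 85.3 and 94.9 CPM at day 0 to 49.4 and 39.3 at day 3 and 11.4 and 9.04 at day 7, and then stood at 31.4 and 33.1 CPM at day 21. It was 2.05-fold lower at day 3 (log2 change -1.04, SE 0.10, adjusted p = 6.16e-09), 8.74-fold lower at day 7 (-3.13, SE 0.13, 4.5e-17) and 2.75-fold lower at day 21 (-1.46, SE 0.11, 5.99e-12). Between days 7 and 21 it rose 3.18-fold (log2 change 1.67, SE 0.14, adjusted p = 5.59e-10). Bcl2l11 followed the same shape at 68.0 and 66.2 CPM, then 40.5 and 35.6, 16.0 and 16.7, and 27.3 and 27.8 CPM. It was 1.78-fold, 4.08-fold and 2.4-fold lower than at day 0 (log2 changes -0.83, -2.03 and -1.26, SE 0.09 to 0.11, adjusted p at most 4.45e-08) and 1.7-fold higher at day 21 than at day 7 (0.77, SE 0.12, adjusted p = 6.07e-06), a call lost in the fit of all 14 libraries (0.405). Both genes were thus lowest at day 7, where Bcl2l1 was highest.

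Bbc3 fell to a lower level and stayed there. Its libraries stood at 45.2 and 41.0 CPM, then 30.3 and 34.6, 17.6 and 19.5, and 14.4 and 22.5 CPM. The log2 change at day 3 was -0.42 (adjusted p = 0.00777), lost without day 0 replicate 1 (0.0978) or day 3 replicate 1 (0.0888), and the level was 2.3-fold lower at day 7 and 2.31-fold lower at day 21 (-1.20 and -1.21, SE 0.14, adjusted p at most 2.31e-08). Bid rose from 15.5 and 15.8 CPM to 32.7 and 38.2, then 64.5 and 66.5, and 64.4 and 70.04 CPM. That was 2.25-fold, 4.22-fold and 4.36-fold above day 0 (log2 changes 1.17, 2.08 and 2.12, SE 0.11, adjusted p at most 3.53e-09), with days 7 and 21 overlapping. Pmaip1 had 1 and 0 counts at day 0, 0 in all libraries of days 3 and 7, and 12 and 11 counts at day 21 (1.14 and 1.07 CPM). Both day 21 libraries stood above all of days 0, 3 and 7. The pooled ratio of day 21 to day 0 was 23.7 (95% counting interval 3.85 to 977), and day 21 was at least 7.25-fold higher than day 7. Pmaip1 passed the count filter in the days through its day 21 counts, so its calls are no support.

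From one time to the next, 5 members rose and 4 fell between days 3 and 7, against 29.5%, 26.1% and 55.6% of genes called higher, lower and either way. Between days 7 and 21, 5 were higher (Mcl1, Bak1, Bcl2l11, Bmf and Pmaip1) and 1 lower (Bcl2l1), against 26.1%, 24.2% and 50.3% of genes. Without day 0 replicate 1, 4 members stayed higher and 2 lower at day 3, and the counts at days 7 and 21 did not change. When all 14 libraries shared 1 estimate of the spread, which is larger, Bcl2l1 was the one member still called at day 3 (1 higher, 0 lower), while 5 members were higher and 3 lower at day 7 and again at day 21. The same fit called Bak1 higher and Bmf lower at day 7 than at day 3. From day 7 to day 21 it called Bmf higher and Bcl2l1 lower, and the calls of Mcl1 (adjusted p = 0.64) and Bak1 (0.709) were lost.

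Levels can be set between genes once divided by exon length, and on that scale (CPM per kilobase of exon) the make-up of the family differed by group. The survival members made up 46.3%, 36.2% and 45.6% of the family sum in the NE libraries and 32.4%, 37.0% and 37.6% in the Non-NE libraries. The group values were 42.7% ± 5.6 and 35.7% ± 2.82 (SD, n = 3). These ranges overlapped only through NE replicate 2 (36.2%), whose reads are part of day 0 replicate 1. NE replicates 1 and 3 lay above all Non-NE libraries. The share went from 35.8% and 34.7% at day 0 to 56.5% and 57.6% at day 3, 64.9% and 65.4% at day 7 and 54.7% and 55.1% at day 21. No library of days 3, 7 or 21 overlapped with day 0 or with either cell state. These shares are sums over chosen members and were not tested.

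**Figure D3:**
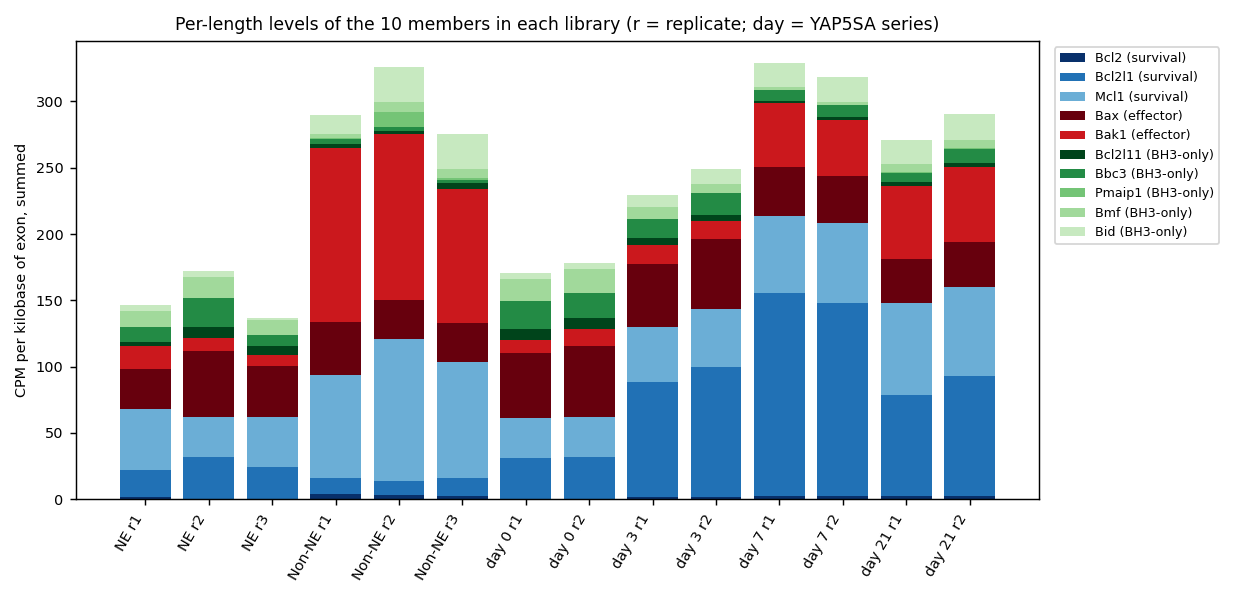
Summed CPM per kilobase of exon of the 10 members in each of the 14 libraries, stacked by member, with survival members in blue, effectors in red and BH3-only members in green. Non-NE libraries carry a large Bak1 share, and the blue share is largest at day 7 (64.9% and 65.4%).

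Within the survival sum, the leading member differed between the Non-NE libraries and the YAP5SA series. Mcl1 made up 82.7%, 88.9% and 84.5% of it in Non-NE libraries and Bcl2l1 13.3%, 8.48% and 12.96%. In NE libraries Mcl1 made up 67.8%, 49.2% and 61.5% and Bcl2l1 30.2%, 50.2% and 38.3%. Bcl2l1 led on every day of the series, though narrowly at day 0, with 50.6% and 51.0% against 48.8% and 48.1% for Mcl1. It held 66.8% and 68.55% at day 3. At day 7 it held 71.6% and 69.9%, against 27.2% and 28.9% for Mcl1, and at day 21 51.3% and 56.5%. Bcl2 was low on this scale, at 0.620 CPM per kilobase in NE, 3.19 in Non-NE, 0.447 at day 0 and 2.36 at day 21 (group means). The ratio of Bak1 to Bax per kilobase was 0.579, 0.204 and 0.205 in NE and 3.31, 4.20 and 3.48 in Non-NE libraries. It was 0.207 and 0.234 at day 0, 0.303 and 0.265 at day 3, 1.33 and 1.21 at day 7 and 1.63 and 1.65 at day 21. Bax was thus the more abundant effector in NE, day 0 and day 3 libraries and Bak1 in the others. The ratio of survival to BH3-only members per kilobase was 2.2, 1.24 and 2.23 in NE, 3.76, 2.36 and 2.5 in Non-NE, 1.21 and 1.23 at day 0, 6.99 and 6.56 at day 7 and 4.26 and 3.96 at day 21.

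Ordered over the 6 groups by mean CPM, Bcl2l1 was highest at day 7 (685 CPM), then at days 3 and 21, which overlapped. Day 0 and NE came next and overlapped only through NE replicate 2 (144 CPM), whose reads are part of day 0 replicate 1. NE replicates 1 and 3 (93.8 and 109 CPM) lay below both day 0 libraries. Non-NE was lowest (55.2 CPM). Mcl1 ran Non-NE (310.3 CPM), day 21, day 7, then day 3 and NE, which overlapped, and day 0 (102 CPM). Bcl2, Bak1 and Pmaip1 were also highest in Non-NE, followed for Bcl2 by days 7, 21 and 3 and for Bak1 by days 21 and 7, none of which overlapped with its neighbour. Bid was highest in Non-NE, day 21 and day 7, whose ranges overlapped in turn. Bmf ran day 0 and NE, then day 3, then day 21 and Non-NE, which overlapped, and day 7 (10.2 CPM). Its day 0 and NE ranges likewise overlapped only through NE replicate 2 (85.8 CPM), with NE replicates 1 and 3 lower (66.0 and 59.15 CPM). Bcl2l11 was highest at day 0 and lowest at day 7, with the 4 groups between them overlapping in turn. Bbc3 was highest at day 0 (43.1 CPM) and lowest in Non-NE (6.02 CPM). Bax varied least, from 51.7 CPM in Non-NE to 81.0 CPM at day 0. Orders that mix the NE and Non-NE libraries with the days rest on scaling over all 14, and the set a library belongs to cannot be told apart from its state.

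Day 21 cells were then set against Non-NE cells, without NE replicate 2 in the fit. Of the members 2 were higher at day 21 (Bcl2l1 and Bbc3) and 2 lower (Mcl1 and Bak1), against 30.8% of 14820 genes called higher, 24.5% lower and 55.3% either way. Bcl2l1 was 6.91-fold higher (log2 change 2.79, SE 0.15, adjusted p = 2.47e-07), with 348 and 414.5 CPM above Non-NE libraries of at most 61.6 CPM. Bbc3 was 3.08-fold higher (1.62, SE 0.25, adjusted p = 0.000435). Bak1 was 2.15-fold lower (-1.10, SE 0.28, adjusted p = 0.00692), a call lost without day 21 replicate 1 (0.0549). The lower level of Mcl1 (-0.40, SE 0.15, adjusted p = 0.0375) was lost with library totals (0.177), without a count filter (0.0789), with all 14 libraries (0.0727) and without Non-NE replicate 2 (0.0806), day 21 replicate 1 (0.123) or day 21 replicate 2 (0.168). Pmaip1 was 11.9-fold higher in Non-NE than at day 21 by pooled counts (counting interval 7.76 to 19.0) with an adjusted p of 0.0605. The value rested on Non-NE replicate 2, without which the fitted fold was 2.53 (adjusted p = 0.0921). It passed with the DESeq2 test (0.0384), in the fit of all 14 libraries (0.0406) and without Non-NE replicate 1 (0.0213) or 3 (0.0393). Bcl2, Bax, Bcl2l11, Bmf and Bid did not pass.

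The difference between the changes, day 21 minus day 0 less Non-NE minus NE, was tested as an interaction. In edgeR 1 member was higher, Bcl2l1, and 0 lower, with 1 lower (Bak1) at an unadjusted p under 0.05 and 0 lower by the DESeq2 test or limma-voom, against 21.2% of genes called higher, 11.6% lower and 32.8% either way. Bcl2l1 rose with YAP5SA and was lower in Non-NE, a difference of 2.29 on the log2 scale (SE 0.22, adjusted p = 3.49e-05). For the other members the differences were 0.29 for Bcl2 (SE 0.9), 0.09 for Mcl1 (SE 0.21), -0.54 for Bax, -0.94 for Bak1 (SE 0.41), -0.79 for Bcl2l11, 0.56 for Bbc3, -0.48 for Bmf and -0.91 for Bid, with adjusted p from 0.104 to 0.851 in edgeR. Pmaip1 did not pass either (adjusted p = 0.443). The median over all genes was 0.12. These differences turned on single NE libraries. The fit already lacks the NE library that shares reads with day 0, so leaving out another leaves 1 NE library. Without NE replicate 1 the differences were -1.63 for Bak1, -2.04 for Bid and -2.11 for Bcl2. Without NE replicate 3 they were 1.14 for Bcl2 and -1.55 for Bcl2l11, so that Bcl2 went in opposite directions. Bmf passed without Non-NE replicate 1 (-0.75, 0.0215). The call of Bcl2l1 was kept without day 0 replicate 1 (2.28, adjusted p = 0.000638).

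The rest of the pathway was followed through lists of related genes, whose counts are to be read against the shares of all genes called: 20.0% higher, 22.8% lower and 42.8% either way in Non-NE, and 37.7%, 34.0% and 71.7% at day 21. Of 15 other BCL2 family genes 10 were tested, and 5 were lower in Non-NE (median log2 change -1.04), while at day 21 7 were lower and 2 higher (-0.78). Bcl2l14, a BCL2 relative, had 45.8, 58.3 and 57.5 CPM in NE libraries and 0 counts in all 3 Non-NE libraries, at least 422-fold lower. At days 7 and 21 it stood at 10.5 and 9.76, and 25.3 and 24.0 CPM, down from 59.0 and 57.0 CPM at day 0. Hrk, a BH3-only gene of neural cells, was 161-fold lower in Non-NE by pooled counts (counting interval 54.7 to 781), and Bik, another BH3-only gene, was 40.8-fold lower (log2 change -5.35, adjusted p = 0.0136). Bcl2l14, Hrk and Bik passed the count filter there through the NE libraries where they are high, so their calls in Non-NE are no support. They are nevertheless in the count of 5 lower genes and in the median. The other lower calls were those of Bnip3 and Bnip3l (log2 changes -4.34 and -1.55). Bcl2l2, which encodes the survival protein BCL-W, had 57.8 and 58.9 CPM at day 0, 121 and 144.5 at day 3, 148 and 141 at day 7 and 70.4 and 71.5 at day 21. Days 3 and 7 overlapped. It was 2.26-fold above day 0 at day 3 (log2 change 1.17, adjusted p = 1.96e-11) and 2.5-fold at day 7 (1.32, 5.13e-13), and 1.23-fold at day 21 (0.30, 0.00391). Bnip3, a mitophagy receptor with a BH3-like stretch, fell 2.44-fold by day 7 (-1.28) and 3.15-fold by day 21 (-1.66).

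**Figure D4:**
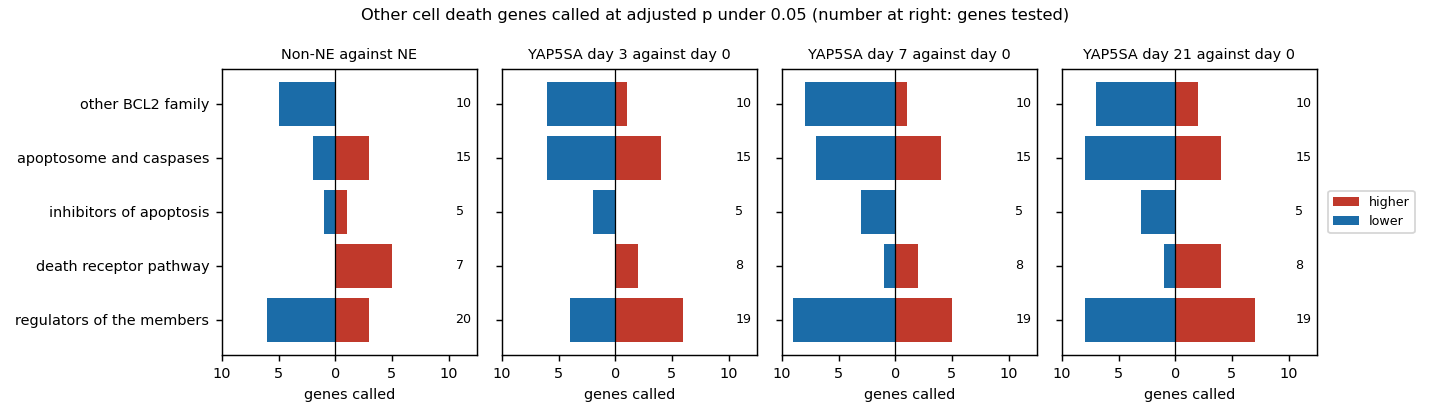
Number of genes of 5 related lists called higher (red, right) or lower (blue, left) in 4 comparisons, with the number tested at the right. In other BCL2 family genes the lower calls outnumber the higher in each comparison (7 and 2 at day 21), and in the death receptor pathway the higher outnumber the lower (4 and 1 at day 21). The Non-NE bars include Bcl2l14, Hrk, Bik and Fas, which passed the count filter through the group where they are high, so these calls are no support. Of all genes, 37.7% were called higher and 34.0% lower at day 21. At days 3 and 7 each, 2 of 8 death receptor genes were higher, beside 26.2% and 37.2% of all genes.

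Downstream of the pore, 3 of 15 apoptosome and caspase genes were higher and 2 lower in Non-NE, and 4 were higher and 8 lower at day 21 (medians -0.32 and -0.26), beside 42.8% and 71.7% of all genes called either way. Htra2, a mitochondrial protease released with cytochrome c, rose 3.84-fold in Non-NE and 4.58-fold by day 21 (log2 changes 1.94 and 2.19). Casp9, the initiator caspase of the apoptosome, fell 2.05-fold by day 21 (-1.04, adjusted p = 1.5e-09), and Apaf1, its scaffold, rose 2.04-fold (1.03, 1.64e-09). Of 5 inhibitors of apoptosis tested, 1 was higher and 1 lower in Non-NE and 3 were lower at day 21. Birc5, which encodes survivin, was 1.86-fold higher in Non-NE (0.89) and 2.04-fold lower at day 3 (-1.03).

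In the death receptor pathway, which reaches the family through Bid, 5 of 7 tested genes were higher in Non-NE, and 4 of 8 were higher and 1 lower at day 21 (medians 1.15 and 0.56), beside 20.0% and 37.7% of all genes called higher. Fas, a death receptor, had 0 counts in every NE library, while Non-NE libraries had 19.3, 101.5 and 33.2 CPM, at least 513-fold more. It had at most 2 counts in any library of the YAP5SA series. Fas is in the Non-NE count and median, but passed the count filter through the Non-NE libraries where it is high. Its call is therefore no support. Tnfrsf10b, the mouse TRAIL receptor, rose 3.86-fold in Non-NE (log2 change 1.95, adjusted p = 0.0031) and 4.07-fold by day 21 (2.03, 5.72e-15).

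Of 20 regulators of the members, 3 were higher and 6 lower in Non-NE, and 7 of 19 tested were higher and 8 lower at day 21 (medians 0.04 and 0.07), beside 42.8% and 71.7% of all genes called either way. Trp73, which encodes a p53 relative that can activate Bbc3, had 0 counts in Non-NE, at least 226-fold lower than in NE, and fell 8.56-fold by day 21 (log2 change -3.10, adjusted p = 2.12e-13). Trp63 was at 0 in NE and at least 97.7-fold higher in Non-NE. In Non-NE against NE, Trp73 and Trp63 each passed the count filter through the group where they are high, so these calls are no support. Both are in the Non-NE counts and median of the list. Foxo3, a transcription factor known to activate Bcl2l11 and Bbc3, was 2.28-fold lower in Non-NE (-1.19, adjusted p = 0.0135) and 1.85-fold lower at day 7 (-0.88, 3.37e-10). Its group means were 230, 123 and 148 CPM at days 0, 7 and 21. Foxo1, of the same list, did not pass in Non-NE (0.82, adjusted p = 0.0912). It was 1.56-fold higher at day 21 than at day 7 (0.64, adjusted p = 1.32e-06). Trp53, a floxed gene that is also in the list, did not pass in Non-NE (0.01, adjusted p = 0.986). It was 2.08-fold lower at day 7 (-1.05, adjusted p = 6.47e-06) and 2.06-fold lower at day 21 (-1.04, 6.24e-06) than at day 0. Chac1 and Ddit3, genes of the integrated stress response, rose 4.69-fold and 2.3-fold by day 21 (2.23 and 1.20). Tmbim6, an endoplasmic reticulum protein also called BAX inhibitor 1, rose 4.23-fold in Non-NE (2.08) and 1.92-fold by day 21 (0.94).

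The genes nearest in profile over the 6 group means were found by the root mean square difference of centred log2(CPM + 1) among 12583 genes. For Bcl2l1 they were Artn (0.166), Kctd16 (0.178) and Orai2 (0.179), for Mcl1 Cdkn2a (0.093), Bicc1 (0.094) and Dtx2 (0.101), and for Bcl2 Hspb2 (0.162), Pttg1ip (0.162) and the member Bid (0.19). For Bid they were Pttg1ip (0.146), Rasa3 (0.158) and Bcl2 (0.19). For Bmf they were Enpp1 (0.161), Sqrdl (0.28) and Cep97 (0.287), and for Bcl2l11 Sdc3 (0.138), Tfap4 (0.156) and Fam131b (0.157). For Bbc3 they were Alkbh2 (0.075), Apc2 (0.13) and Slc2a4 (0.149), and for Pmaip1 Zbtb7c (0.077), Vegfc (0.086) and Steap3 (0.123). These are descriptions over 6 groups, of which NE and day 0 share reads.

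Several members share exon sequence with another gene in GENCODE M21 on mm10, and whether counting used strand is not given in the sources used here. Bak1 (chromosome 17, 27019810 to 27029009, minus strand) shares 437 and 177 exon bases with Ggnbp1 on the other strand, whose mean was 7.81 CPM in NE libraries, against 1.57 CPM in Non-NE. Bid (chromosome 6, 120891930 to 120916853, minus strand) shares 628 bases, 17.7% of its exons, with Bcl2l13 on the other strand, whose change in Non-NE was 0.05 (adjusted p = 0.819). Bax (chromosome 7, 45461697 to 45466898, minus strand) shares 192 bases with Gm45808 on the same strand. Gm45808 is not among the gene symbols of the count table, so the annotation used for counting may have lacked it. Bcl2 (chromosome 1, 106538178 to 106714274, minus strand) shares 558 bases with the antisense gene D630008O14Rik, which had 0 counts in all libraries. Reads in shared stretches of Bak1, Bid and Bax cannot be assigned to 1 gene, and the values of these 3 are uncertain to that extent. Bcl2l1 (chromosome 2, 152780668 to 152831728, minus strand), Mcl1 (chromosome 3, 95658788 to 95663176, plus strand), Bmf (chromosome 2, 118528757 to 118549687, minus strand), Bcl2l11 (chromosome 2, 128126038 to 128162547, plus strand), Bbc3 (chromosome 7, 16308393 to 16318205, plus strand) and Pmaip1 (chromosome 18, 66458533 to 66465565, plus strand) shared no exon bases with another annotated gene.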

How the data were processed

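Poly(A) RNA of 14 libraries was sequenced. The submitters' processing notes name STAR 2.4.2, featureCounts and the mm10 build. The featureCounts version, its annotation and its strand setting were not given in the sources used here. Raw counts, as deposited by the authors, covered 32926 gene symbols in 14 columns, and all columns were used. Library totals of 6730816 to 10659524 counts set the precision.

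Groups followed the labels (NE and Non-NE, n = 3; YAP5SA days, n = 2). Counts were scaled by TMM, filtered with filterByExpr and tested over all genes in edgeR 4.0.16 under R 4.3.3 by its quasi-likelihood F test with robust estimation. A gene was called at a Benjamini-Hochberg adjusted p under 0.05. NE and Non-NE were fitted in 6 libraries (12966 genes, biological coefficient of variation 0.399), the days in 8 (13996 genes, 0.0548) and comparisons across sets in 13, without NE replicate 2 (14820 genes, 0.266). Fold changes are those of the fit. Levels are CPM scaled over all 14 libraries, and per-kilobase values use union exon length from GENCODE M21. Ratios against 1 to 3 counts carry 95% counting intervals from pooled counts.

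Members and lists were chosen with earlier results of these data known. The text names all members and, per list and comparison, up to 3 called genes with the largest rise and 3 with the largest fall among those with at least 5 CPM in a group, of which a selection is printed, and the 3 genes nearest in profile to each survival or BH3-only member that changed at least 2-fold. Alternatives tried were scaling by DESeq2 size factors or by library totals, no filter on counts, a filter at 1 CPM, DESeq2 1.42.0, limma-voom (limma 3.58.1), 1 fit of all 14 libraries, a replicate block, and the omission of each library in turn. The pipeline was tested on simulated data. Part of the genotype is not reported here.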

Additional observations from a re-analysis of the deposited data

How the results depend on the processing

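Fits that leave out a day library, or NE replicate 1 or 3 in comparisons across sets, leave 1 sample in that group. It is then assumed to vary like the others, and Pmaip1 is limited by 0 or 1 count in several groups. Leaving out each library gave 4 to 5 members higher and 2 to 3 lower in Non-NE against NE, 4 to 5 and 2 to 3 at day 3 against day 0, 5 and 4 at day 7 against day 0, 5 to 6 and 4 at day 21 against day 0 (5 without either day 21 library, when Pmaip1 no longer passed the count filter), 5 and 4 at day 7 against day 3, 3 to 4 and 1 at day 21 against day 7, 2 and 0 to 3 at day 21 against Non-NE, and 1 to 2 and 0 to 3 for the difference of changes. The lowest value at day 21 against day 7 came without day 7 replicate 2 (3 higher), that of 0 lower against Non-NE without day 21 replicate 1, and the highest for the difference without NE replicate 1 (3 lower). In 1 fit of all 14 libraries, 1 member was higher and 0 lower at day 3, 1 higher and 1 lower at day 7 against day 3, and 1 higher at day 21 against day 7. Against Non-NE, 1 was lower with library totals or no count filter. The replicate numbers do not pair the libraries (correlations of same-numbered deviations from -0.103 to 0.047), and the replicate block left the counts of called members as they were except in the difference of changes, where 2 were lower (Bak1 and Bcl2l11).

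Changes of sign were confined to values that did not pass the test, apart from Bcl2 in the difference of changes without NE replicate 1 (-2.11; range over omitted libraries to 1.14; -0.37 with limma-voom). Bax at day 3 was 0.03 without day 0 replicate 2 and 0.03 without day 3 replicate 1, and Bid at day 21 against day 7 was -0.03 without day 21 replicate 2 and up to 0.1 without replicate 1. At day 21 against Non-NE, Bcl2l11 was 0.13 with library totals, 0.01 with limma-voom, 0.36 with the replicate block and from -0.29 to 0.25 over omitted libraries (0.25 without Non-NE replicate 3), Bmf ran from -0.23 without Non-NE replicate 1 to 0.19, and Bax was -0.04 and -0.05 without Non-NE replicates 2 and 3 and up to 0.18 without replicate 1. Mcl1 in the difference of changes was -0.04 with all 14 libraries, -0.05 without NE replicate 1 and -0.02 without Non-NE replicate 1, and up to 0.22 without NE replicate 3. The causes were not tested.

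Library totals moved the median of all genes from -0.02 to -0.28 in Non-NE against NE, from 0.03 to -0.17 at day 7, from 0.02 to -0.12 at day 21 and for day 7 against day 3, from 0.06 to 0.24 against Non-NE and from 0.12 to 0.3 in the difference. The share of calls that were higher moved with it, from 46.7% to 33.9% in Non-NE, from 52.4% to 40.4% at day 7, from 53.0% to 38.2% for day 7 against day 3 and from 64.7% to 75.0% in the difference. With all 14 libraries, called genes went from 5554 to 8997 in Non-NE, from 6804 to 1041 at day 3 (76.1% higher against 54.0%), from 9932 to 4589 at day 7, from 10032 to 4586 at day 21, from 7785 to 1281 for day 7 against day 3 and from 7042 to 515 for day 21 against day 7. The difference went from 4864 to 3224 and 3170 genes without day 0 replicates 1 and 2.

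The survival share without division by length was 50.6% in NE, 44.3% in Non-NE, 43.4% at day 0, 68.8% at day 3, 76.6% at day 7 and 65.7% at day 21, and per length without Mcl1 it was 22.8%, 7.44%, 21.9%, 47.7%, 57.4% and 40.2%.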
